A study of Mus musculus with 7 samples.

Results

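The genes of the MEF2 and SRF transcription factors were examined for open chromatin in mouse muscle stem cells (MuSCs) that had or lacked Nedd4L. The group comprised 6 of the 21887 protein-coding genes annotated on mm10, namely Mef2a, Mef2b, Mef2c, Mef2d, Srf and Myocd. For each gene, all accessibility peaks that overlapped its RefSeq span or the 20 kb on either side were taken, and the promoter was defined as 1 kb on either side of any annotated start. These 6 windows held 28 to 31 peaks per library out of 69302 to 79158, which merged into 35 regions across the libraries. Of these regions, 25 were called in all 7 libraries, against 53245 of 95163 in the whole data set. The region at the edge of the Mef2d window, chr3:88191009-88193087, counts among the 25 although it runs past the window. Its peaks in Nedd4L-cKO replicates 3 and 4 and WT replicate 2 lay outside the window.

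MEF2 proteins and SRF belong to the MADS-box family and bind short AT-rich elements in DNA. SRF binds the CArG box and drives genes of the actin cytoskeleton and the immediate early response, and MEF2 proteins bind the MEF2 site and drive muscle differentiation together with the myogenic factors. Their output is set largely by partners: MRTF proteins and myocardin (Myocd) coactivate SRF, and class IIa histone deacetylases repress MEF2.

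The libraries were made by ATAC-seq, in which the Tn5 transposase cuts open chromatin, from 5000 freshly sorted MuSCs of hindlimb muscle each. There were 4 Nedd4L-cKO and 3 WT libraries, and the question was whether loss of Nedd4L, an E3 ubiquitin ligase, alters chromatin accessibility in these cells. The mutant line carried Nedd4L fl/fl and Pax7 cre/+ on a C57BL/6 background, so Cre was made in every cell with a history of Pax7 expression from development onwards, and the mice were males aged 5 to 6 weeks. The study gives as many mice as libraries in each genotype, and the alleles carried by the WT mice are not given in the sources used here. Peak lists cannot show whether the floxed exon was lost.

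The libraries kept 14429374 to 20084685 tags after the filter of the peak caller, out of 28353538 to 42431517 tags read. The most tags and the most peaks were in Nedd4L-cKO replicate 4, and WT replicate 3 was the only library sequenced on lane 2. The labelled cell type was checked against its markers: all 10 MuSC markers, Pax7 among them, had a promoter peak in all 7 libraries. By contrast, 0 of 4 immune markers had a promoter peak in any library. Of all protein-coding genes with an annotated start, 63.4% had a promoter peak in all 7 libraries and 31.3% in none. Among the other cell types that a sort could carry over, 2 of 5 endothelial, 0 of 4 fibro-adipogenic, 5 of 7 smooth muscle and 4 of 5 myofibre markers had a promoter peak in all 7. The endothelial markers with a peak in all 7 libraries were Kdr and Tek, and Pecam1, Cdh5 and Vwf had none in any library. Of the fibro-adipogenic markers, Dcn had a promoter peak in 5 libraries (2 Nedd4L-cKO and 3 WT), Lum in 1, and Pdgfra and Ly6a in none. The promoter of Pou5f1, a pluripotency gene, had no peak in any library. These markers do not measure how many cells of another type were present.

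All 6 genes had a promoter peak in all 7 libraries, where 63.4% of 21440 protein-coding genes with an annotated start did. The open start was not always the outermost. In Mef2a a peak lay at the start at chr7:67372858 in all 7 libraries and none lay at the outermost start at chr7:67376456. In Srf a peak lay at chr17:46556162 in all 7 and none at the outermost start at chr17:46558267. In Mef2c the start at chr13:83523656 had a peak in all 7 libraries, the outermost pair of starts at chr13:83504017 and chr13:83504034 had one in 2 libraries (Nedd4L-cKO replicate 4 and WT replicate 1), and the start at chr13:83573607 had none. With the outermost start alone, 3 of the 6 genes (Mef2b, Mef2d and Myocd) had a promoter peak in all 7 libraries, against 59.7% of all genes.

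The sequences before the open starts are shown because they differ in the elements that MEF2 and SRF themselves bind. They come from RefSeq on GRCm38 (mm10), which held a start for 5 of the 6 genes (not Myocd), and run 5′ to 3′ in the direction of transcription. Capitals mark matches on either strand to the CArG box (CC, then 6 bases that are each A or T, then GG), the MEF2 site (a core of 4 A or T bases between TA pairs, with a pyrimidine before and a purine after), the E-box (CANNTG), the CCAAT box (CCAAT) and the GC box (GGGCGG).
Srf, start chr17:46556162, minus strand, chr17:46556143-46556412: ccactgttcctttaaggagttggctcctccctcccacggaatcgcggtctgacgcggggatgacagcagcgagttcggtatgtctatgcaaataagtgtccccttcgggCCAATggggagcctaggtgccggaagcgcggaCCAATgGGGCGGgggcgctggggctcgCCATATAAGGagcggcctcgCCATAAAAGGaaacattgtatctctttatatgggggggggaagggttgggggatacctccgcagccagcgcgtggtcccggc
Mef2a, start chr7:67372858, minus strand, chr7:67372839-67373108: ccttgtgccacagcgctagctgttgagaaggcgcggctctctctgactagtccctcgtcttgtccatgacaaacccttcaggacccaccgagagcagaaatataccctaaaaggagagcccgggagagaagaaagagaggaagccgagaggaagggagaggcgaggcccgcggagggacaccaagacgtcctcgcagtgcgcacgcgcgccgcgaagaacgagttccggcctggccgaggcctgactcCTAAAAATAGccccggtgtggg
Mef2d, start chr3:88142372, plus strand, chr3:88142122-88142391: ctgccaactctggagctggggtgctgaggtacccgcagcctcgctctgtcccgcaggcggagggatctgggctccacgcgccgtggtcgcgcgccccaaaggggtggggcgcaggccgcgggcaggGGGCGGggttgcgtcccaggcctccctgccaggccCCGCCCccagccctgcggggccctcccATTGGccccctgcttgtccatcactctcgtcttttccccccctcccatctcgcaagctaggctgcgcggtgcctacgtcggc
Mef2b, start chr8:70152761, plus strand, chr8:70152511-70152780: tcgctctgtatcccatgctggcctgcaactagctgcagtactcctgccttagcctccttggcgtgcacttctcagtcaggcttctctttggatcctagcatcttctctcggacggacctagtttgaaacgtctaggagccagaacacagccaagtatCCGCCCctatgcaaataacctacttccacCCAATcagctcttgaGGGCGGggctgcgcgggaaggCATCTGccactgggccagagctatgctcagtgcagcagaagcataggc
Mef2c, open start chr13:83523656, plus strand, chr13:83523406-83523675: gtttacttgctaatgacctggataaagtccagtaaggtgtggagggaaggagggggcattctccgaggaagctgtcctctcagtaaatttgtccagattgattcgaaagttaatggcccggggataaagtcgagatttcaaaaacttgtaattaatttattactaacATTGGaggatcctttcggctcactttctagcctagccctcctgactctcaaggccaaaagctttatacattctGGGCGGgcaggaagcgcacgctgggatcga
Mef2c, outermost starts, here chr13:83504034, plus strand, chr13:83503784-83504053: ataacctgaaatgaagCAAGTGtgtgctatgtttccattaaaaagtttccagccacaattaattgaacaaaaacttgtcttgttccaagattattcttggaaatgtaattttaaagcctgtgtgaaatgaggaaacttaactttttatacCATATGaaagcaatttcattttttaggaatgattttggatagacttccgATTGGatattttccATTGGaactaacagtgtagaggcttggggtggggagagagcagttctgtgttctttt

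Matches were counted in the whole RefSeq promoter window around each start, most of it upstream, with position 1 at the start and position -1 just before it. The Srf window held 2 CArG boxes, CCATATAAGG at position -82 and CCATAAAAGG at position -62. A CArG box was present in 1.63% of all 32851 promoter windows, and 2 or more were present in 6 of them (0.0183%). The Mef2a window held a MEF2 site, CTAAAAATAG, that began at position -2, and 3.19% of all windows held such a site. None of the other member windows held a CArG box or a MEF2 site. GC boxes, in 35.7% of all windows, and CCAAT boxes, in 37.4%, were in the windows of Mef2b, Mef2d, Srf and the open start of Mef2c, and the window of the outermost Mef2c starts held CCAAT boxes at positions -51 and -37. E-boxes, in 72.3% of all windows, were at positions -28 and 44 in Mef2b at -234 and -100 before the outermost starts of Mef2c, and at -245 before its innermost start. A match is a description of the letters and not evidence of binding.

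The windows also differed in base composition. GC content was 72.0% in Mef2d, above 93.1% of all windows, 63.3% in Srf, 62.3% in Mef2a and 57.0% in Mef2b, beside a median of 52.7%. It was 47.0% at the open start of Mef2c, 48.3% at its innermost start and 35.7% at its outermost starts, which was above only 4.3% of all windows. The ratio of observed to expected CpG was 0.929 in Mef2a, 0.837 in Srf, 0.619 in Mef2d and 0.457 in Mef2b, beside a median of 0.384. In Mef2c it was 0.612 at the open start, 0.228 at the innermost start and 0.109 at the outermost starts.

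The promoters of the 6 genes fell into a higher and a lower set by pileup, the coverage of extended tags in a peak, here given as its percentile among all peaks of the same library. The mean over the 7 libraries was 99.3 in Mef2d, 98.8 in Srf and 96.7 in Mef2a. It was 51.3 in Mef2b, 50.6 in Mef2c and 40.8 in Myocd. Set against the 13756 genes with a promoter region called in all 7 libraries, Mef2d exceeded 97.3%, Srf 95.5% and Mef2a 86.5% of promoters, whereas Mef2b exceeded 9.19%, Mef2c 8.82% and Myocd 5.58%. Ordering by fold enrichment, the ratio of pileup to the local background of the library, gave another picture: the mean fold percentile was 87.7 in Mef2a, 85.5 in Mef2b, 74.8 in Myocd, 61.7 in Mef2c, 41.7 in Srf and 5.29 in Mef2d.

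**Figure D1:**
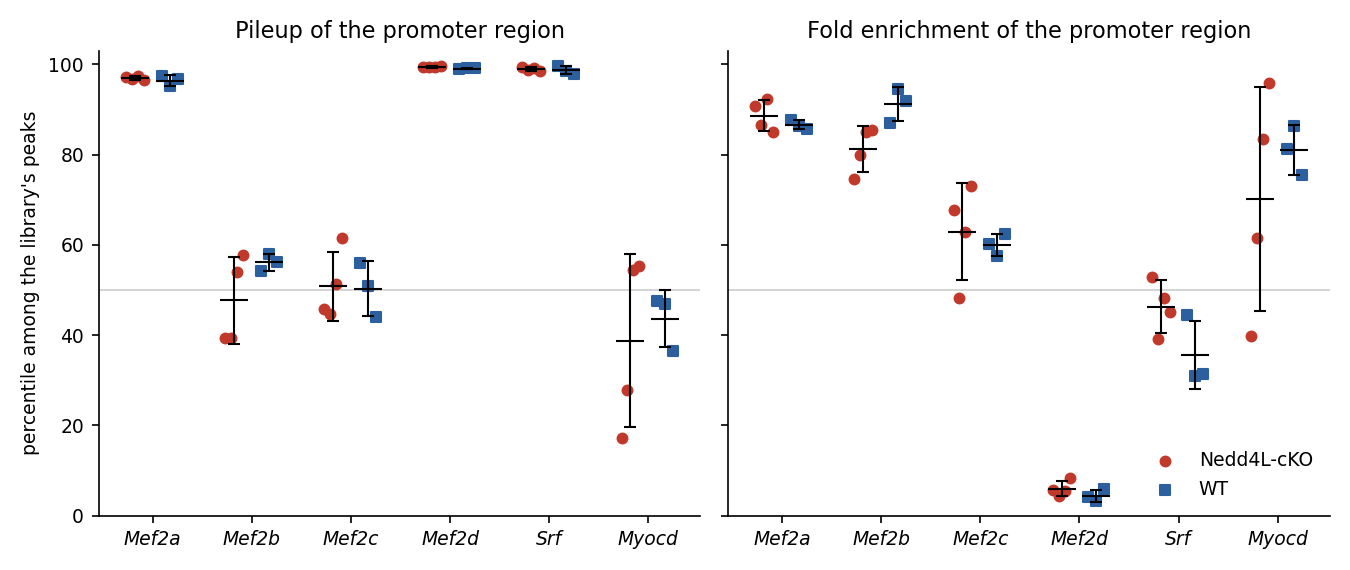
Percentile of pileup (left) and of fold enrichment (right) of the promoter region of each gene among all peaks of its library, for 4 Nedd4L-cKO (circles) and 3 WT (squares) libraries, with the mean ± SD of each genotype as black bars. Mef2d lies at the top by pileup (mean 99.3) and at the bottom by fold (mean 5.29), and the Mef2b fold percentiles of the genotypes do not overlap. Over all regions called in all 7 libraries, fold ranks did not overlap with WT higher in 2.09% and with Nedd4L-cKO higher in 2.67%.

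Mef2d encodes the MEF2 protein that is widely expressed, and its promoter region, chr3:88141861-88143683, had a pileup of 70.8, 64.1, 67.9 and 83.2 in Nedd4L-cKO replicates 1 to 4 and of 67.7, 68.2 and 63.9 in WT replicates 1 to 3. The highest value was in Nedd4L-cKO replicate 4, the library with the most tags, and the other 6 lay close together. Fold enrichment over the same peak was only 2.64, 2.52, 2.57 and 2.57 in Nedd4L-cKO and 2.43, 2.38 and 2.67 in WT. The local background implied by these values (pileup plus 1, divided by fold, minus 1) was 23.3 to 31.8, which was 13.1 to 16.3 times the genome-wide background of the same library. Over all peaks this ratio had a median of 1.77 and a 99th percentile of 10.8. Coverage was therefore high around the promoter as well as in it.

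The neighbouring Mef2d regions had the same pairing of high pileup and low fold. The region 2682 bp before the outer start, chr3:88138263-88139259, had a median pileup percentile of 93.2 and a median fold percentile of 2.43, and the region 6518 bp after the inner start, chr3:88148890-88150945, had 82.3 and 7.21. A further region between them, chr3:88144986-88146196, was called in only 3 libraries although its pileup percentile there was 92.7 to 94.8, at a fold percentile of 0.0575 to 0.263. By contrast, a region 5004 bp beyond the 3′ end of the gene, chr3:88177095-88178588, combined a pileup percentile of 98.1 to 99.4 with a fold percentile of 80.7 to 87.7. It overlapped the non-coding gene 1700113A16Rik and lay within 1 kb of its start, and no protein-coding start lay within 1 kb.

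Srf encodes the serum response factor itself. Its promoter region, chr17:46555545-46556862, had a pileup of 70.5, 59.3, 67.1 and 70.1 in Nedd4L-cKO and of 74.9, 64.3 and 56.6 in WT, so the ranges overlapped. The fold percentile was 52.9, 39.03, 48.2 and 45.01 in Nedd4L-cKO and 44.4, 31.1 and 31.3 in WT, which also overlapped. A shorter region inside the gene, chr17:46552762-46553489 and 2673 bp after the open start, had a still higher pileup, at 79.4, 72.8, 77.7 and 85.3 in Nedd4L-cKO and 82.2, 75.7 and 78.4 in WT. Its pileup percentile was 99.7 to 99.9 in all 7 libraries, with a fold percentile of 48.6 to 68.6. Whether it lies in an exon or an intron was not determined, because no transcript models of the build were used. The implied local background was 9.15 to 10.99 times the genome-wide value at the Srf promoter and 9.72 to 11.6 times at the internal region. The remaining Srf region, chr17:46545719-46546854, is also the promoter of the neighbouring gene Cul9.

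Mef2a, another widely expressed MEF2 gene, had a promoter region, chr7:67372351-67373909, that ranked high on both scales. The pileup was 57.6, 51.3, 56.8 and 61.5 in Nedd4L-cKO and 59.7, 52.8 and 52.2 in WT, and the fold percentile was 90.7, 86.5, 92.4 and 85.0 against 87.7, 86.3 and 85.7. Both pairs of ranges overlapped. Beyond the promoter, a region 8337 bp before the outermost start, chr7:67384793-67385939, was called in all 7 libraries with a fold percentile from 57.4 to 95.1, the lowest in Nedd4L-cKO replicate 2 and the highest in Nedd4L-cKO replicate 4. A further upstream region, chr7:67390218-67391503, lay 13762 bp before the outermost start with a median fold percentile of 82.3. The region chr7:67221867-67223344 beyond the 3′ end is the promoter of Lysmd4.

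Mef2c, which encodes a MEF2 protein required in skeletal and cardiac muscle development, was open at its inner start. By pileup it exceeded only 8.82% of promoters called in all 7 libraries. The promoter region, chr13:83523578-83525586, had a pileup percentile of 45.8, 44.8, 51.4 and 61.5 in Nedd4L-cKO and 56.1, 50.8 and 44.0 in WT. The strongest region of the gene was elsewhere: chr13:83517924-83518882, inside the gene at -4774 bp from the open start, had a fold percentile of 94.1, 98.9, 94.4 and 98.9 in Nedd4L-cKO and 97.9, 98.99 and 98.9 in WT, with a median pileup percentile of 71.5. The region at the outermost starts, chr13:83503544-83504282, reached a pileup percentile of 11.9 in Nedd4L-cKO replicate 4 and 10.7 in WT replicate 1. It also overlapped the annotated gene Gm33317 and lay within 1 kb of its start. A region called in all 7 libraries, chr13:83603545-83604923, lay 29938 bp after the innermost start with a median fold percentile of 85.9.

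Mef2b encodes the most divergent MEF2 protein, and its promoter region, chr8:70152306-70153222, also lies within the annotated readthrough gene Gm45929. Its fold percentile was 74.6, 80.0, 85.0 and 85.4 in Nedd4L-cKO and 87.0, 94.5 and 91.9 in WT. All WT libraries were above all Nedd4L-cKO libraries on this scale, whereas the pileup percentile, 39.5, 39.5, 54.1 and 57.7 against 54.2, 57.9 and 56.2, overlapped. Over all 53245 regions called in all 7 libraries, fold ranks did not overlap with WT higher in 2.09% and with Nedd4L-cKO higher in 2.67%. A region 5276 bp inside the gene, chr8:70158037-70159125, ranked higher than the promoter, with a fold percentile of 89.8, 96.7, 97.4 and 99.7 in Nedd4L-cKO and 98.9, 98.5 and 95.5 in WT. The window also held the shared promoter region of Borcs8, Rfxank and Gm45929, chr8:70138632-70140183, and that of Tmem161a, chr8:70171794-70173008, which both rank among its stronger peaks.

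Myocd encodes myocardin, a coactivator of SRF in smooth and cardiac muscle. Its promoter region, chr11:65269661-65270952, also overlaps the annotated gene Gm30586. The region was called in every library, and its pileup percentile ranged from 17.2 to 55.3, a wider span than at the other 5 promoters. The pileup was 8.08, 9.27, 16.99 and 18.9 in Nedd4L-cKO and 15.2, 14.98 and 10.9 in WT. The lowest value of each genotype was in a library with few tags (Nedd4L-cKO replicate 1 and WT replicate 3), and the WT values lay inside the Nedd4L-cKO range. The part of depth in this spread was not tested. Of the other 3 regions in this window, chr11:65161779-65163141, the promoter of Arhgap44, was called in all 7 libraries, and those inside the gene at chr11:65197087-65197497 and beyond its 3′ end at chr11:65170033-65170494 were called in 1 library, Nedd4L-cKO replicate 4. The same libraries had promoter peaks at the smooth muscle markers Myh11, Acta2, Tagln, Smtn and Lmod1 in all 7 cases, at Cnn1 in 3 libraries and at Kcnmb1 in none. The part of other cell types in the Myocd peak was not tested.

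**Figure D2:**
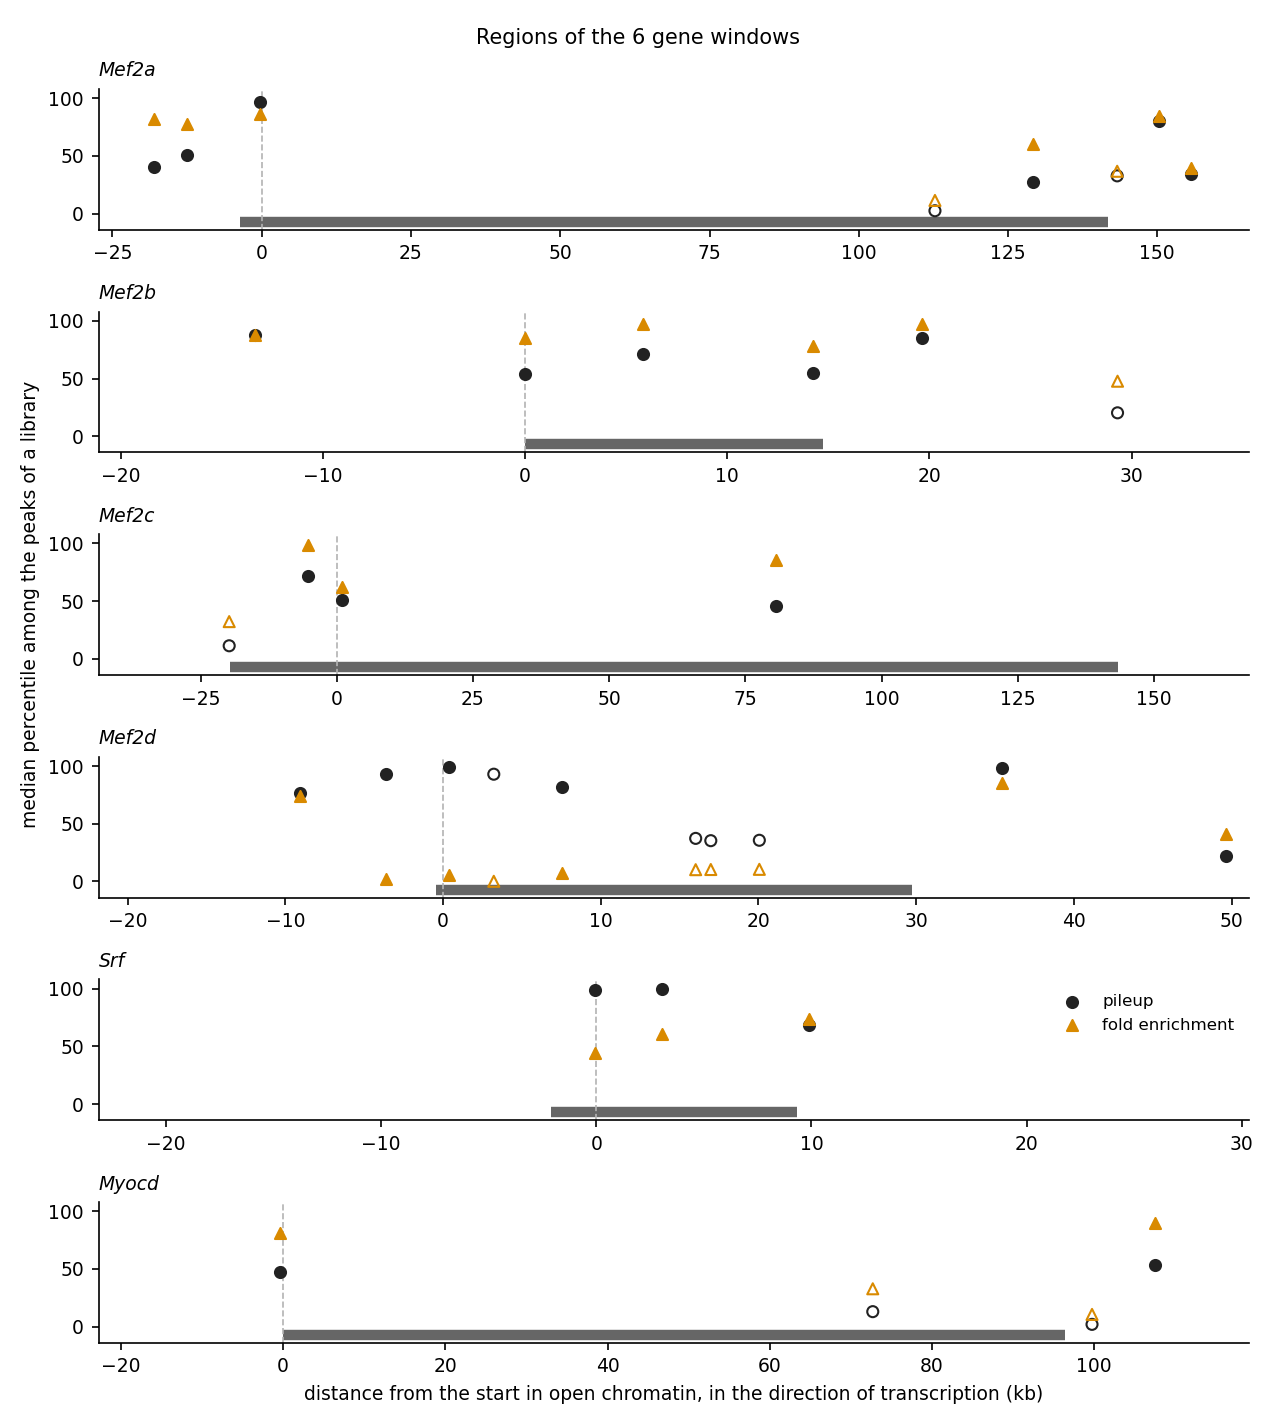
Regions of the 6 gene windows by distance in kb from the start in open chromatin (dashed line), in the direction of transcription, against the median percentile of pileup (circles) and of fold enrichment (triangles). Filled symbols are regions called in all 7 libraries, open symbols those called in fewer, and the grey bar is the gene; around the Mef2d promoter the median pileup percentile reaches 99.3 with a median fold percentile of 5.51.

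The density of peaks differed among the genes. The mean over the 7 libraries was 10.8 peaks per 100 kb in the Mef2d window and 9.92 in the Mef2b window, above 88.0% and 84.4% of the windows of all genes. It was 5.83 in Srf and 4.16 in Mef2a, near the median of 4.51, and 1.68 in Myocd and 1.62 in Mef2c.

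Loss of Nedd4L did not detectably change the number of peaks in these windows. The 4 Nedd4L-cKO libraries had 30, 31, 28 and 31 peaks and the 3 WT libraries had 29, 28 and 28, a mean of 30 ± 1.41 (SD, n = 4) against 28.3 ± 0.577 (SD, n = 3). The difference of 1.67 gave p = 0.171 in a two-sided exact permutation test over 35 assignments of genotype, with an adjusted p of 0.343 over the 2 totals tested, and 0.0286 is the smallest p this design can give. The covered length was 27.3, 26.9, 24.96 and 30.8 kb in Nedd4L-cKO and 27.4, 27.8 and 26.2 kb in WT. The means of 27.5 ± 2.42 kb (SD, n = 4) and 27.1 ± 0.822 kb (SD, n = 3) overlapped, with p = 0.857 in the exact permutation test. Both differences changed sign under stricter peak sets.

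By gene, Srf had 3 peaks in every library. Mef2d had 9, 8, 8 and 7 in Nedd4L-cKO and 7 in each WT library, and Mef2b had 5, 6, 6 and 6 against 5 in each. The extra Mef2b peak, chr8:70181873-70182260, was called in Nedd4L-cKO replicates 2, 3 and 4 and in no WT library, at a pileup percentile of 3.16 to 24.8, so it was a weak peak. An extra Mef2d peak, chr3:88157935-88158850, was found in each of the 4 Nedd4L-cKO libraries but also in WT replicate 2. No region of the 6 windows separated the genotypes by its calls. Over all 95163 regions, 0.0694% had a peak in each Nedd4L-cKO library and no WT library, and 0.082% showed the reverse.

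**Figure D3:**
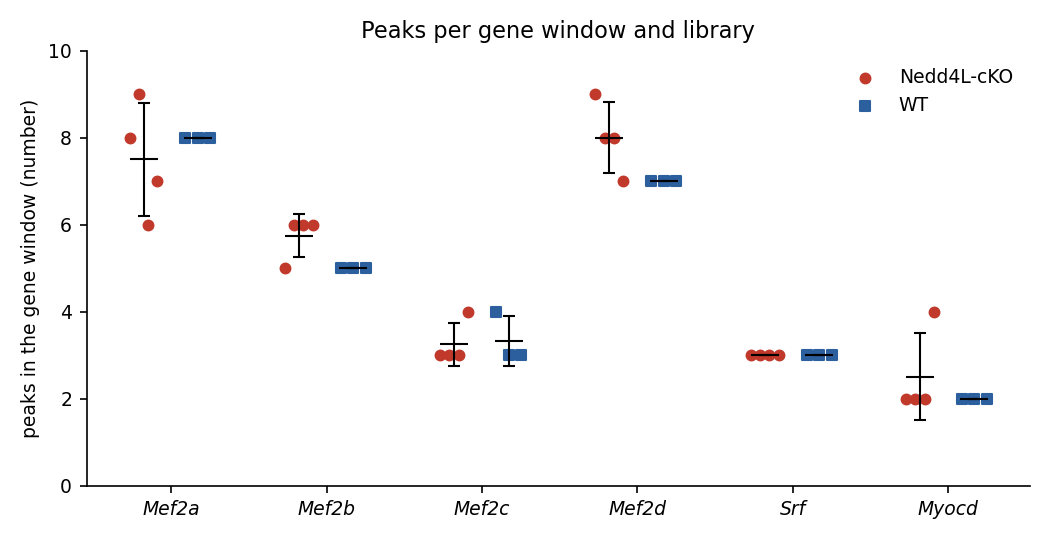
Number of peaks in the window of each gene in 4 Nedd4L-cKO (circles) and 3 WT (squares) libraries, with the mean ± SD of each genotype as black bars. The ranges of the genotypes touch or overlap for all 6 genes, and Srf has 3 peaks in every library.

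None of the 25 regions called in all 7 libraries passed a test for a difference between the genotypes. Fold enrichment was ranked within each library over all 53245 shared regions, turned into normal scores (units of 1 SD of the ranks) and compared with limma. With Benjamini-Hochberg adjustment over all 53245 regions, 0 regions passed an adjusted p of 0.05 anywhere (0%), and the smallest adjusted limma p among the 25 was 1. At an unadjusted p under 0.05 there was 1 member region of 25, beside 3.98% of all regions. The median difference was -0.06 over the 25 regions and 0.01 over all regions.

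The region with an unadjusted p under 0.05 was the Mef2b promoter. Its normal score was lower in Nedd4L-cKO by 0.53 ± 0.19 (SE), with a 95% interval from -0.96 to -0.09, an unadjusted limma p of 0.0237 and an adjusted p of 1. It was also the only region of the 25 whose fold ranks did not overlap between the genotypes, with WT higher, where 2.09% of all regions had WT higher and 2.67% had Nedd4L-cKO higher. Ranked by pileup, the same region differed by -0.26 ± 0.14 (SE). By pileup 2 other regions did not overlap, both with Nedd4L-cKO higher, namely the Mef2d promoter and the region at the Cul9 promoter in the Srf window; over all regions 1.82% had Nedd4L-cKO higher and 1.78% had WT higher.

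The remaining promoters gave intervals that included 0. The difference in normal score, Nedd4L-cKO minus WT, was 0.29 at Srf (95% interval -0.15 to 0.72), 0.15 at Mef2d (-0.22 to 0.52), 0.12 at Mef2a (-0.30 to 0.54), 0.09 at Mef2c (-0.36 to 0.54) and -0.24 at Myocd (-1.23 to 0.75). The interval at Myocd was the widest of the 6 promoters, and shifts of up to about 1 SD of the ranks remain within it. The internal Srf region differed by 0.13 (-0.30 to 0.57), the region beyond Mef2d at chr3:88177095-88178588 by -0.07 (-0.45 to 0.31), the strong Mef2c region at chr13:83517924-83518882 by -0.30 (-0.85 to 0.24) and the internal Mef2b region by -0.11 (-0.85 to 0.64). In the other windows the lowest p was at the Arhgap44 promoter beside Myocd (-0.45, -1.01 to 0.10), the distal Mef2a region at chr7:67390218-67391503 (-0.40, -1.09 to 0.29) and the edge of the Mef2d window at chr3:88191009-88193087 (0.47, -0.32 to 1.26). The upstream Mef2a region at chr7:67384793-67385939 differed by -0.32 (-1.19 to 0.55).

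**Figure D4:**
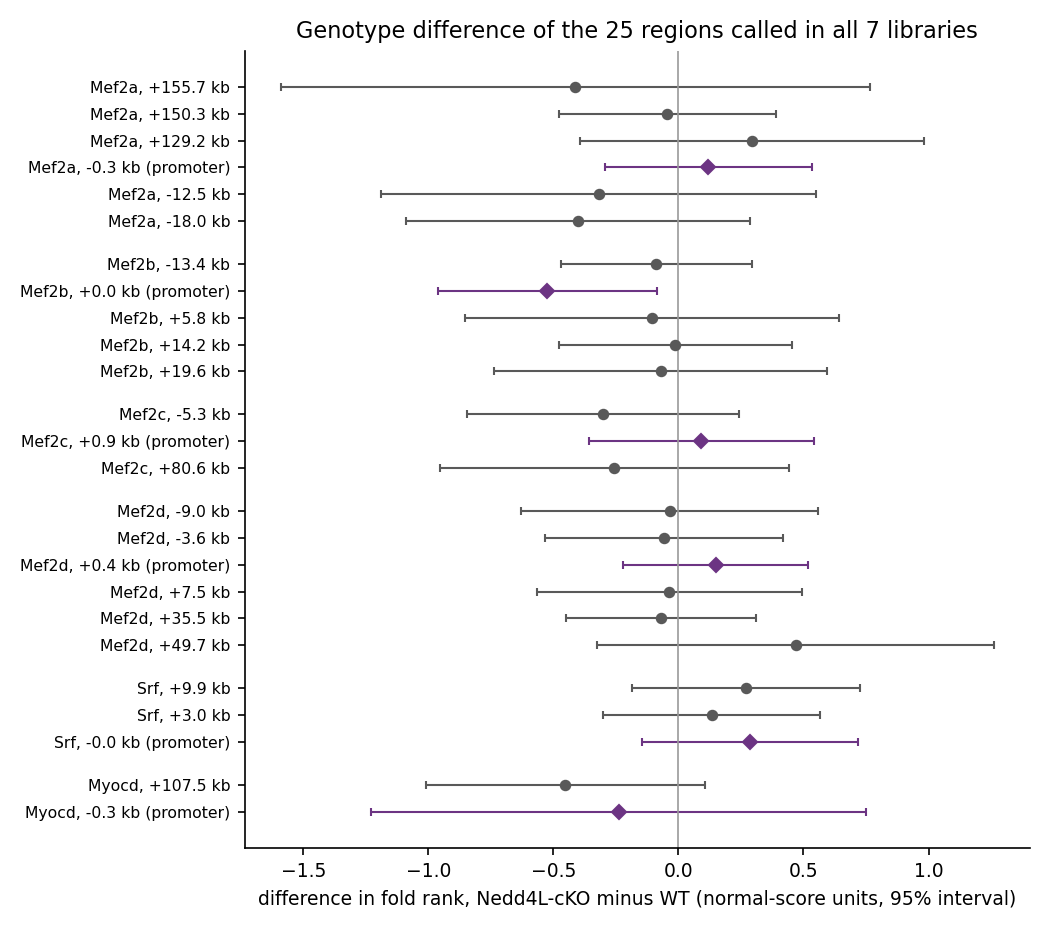
Difference in the normal score of fold enrichment, Nedd4L-cKO minus WT, for the 25 regions called in all 7 libraries, labelled by distance in kb from the open start; bars are 95% intervals from limma and diamonds are promoters. The interval of the Mef2b promoter (-0.96 to -0.09) is the only one that leaves out 0.

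For each promoter, the protein-coding gene whose promoter followed it most closely over the 7 libraries was found by Pearson's r of the normal scores, among 13755 promoters. These were Cenpm for Mef2d (r = 0.990), Gm6034 for Srf (0.982), Slc7a6 for Mef2a (0.978), Snap25 for Mef2c (0.974), Zc2hc1a for Mef2b (0.972) and Tnfrsf11b for Myocd (0.968). Between 16 and 65 promoters (0.116% to 0.473% of those compared) reached an r over 0.9 with each member. With only 7 points, and with any genotype difference left in the scores, these names are a description. What makes these promoters vary together was not tested.

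Of 42 genes that act with these factors or are their targets, 35 had a promoter peak in all 7 libraries, 6 in some and 1 in none, where 63.4% of all genes had a promoter peak in all 7. All 6 SRF cofactors did: among them the pileup percentile, as a mean over libraries, ranged from 73.2 at Elk3, an ETS-family partner of SRF, to 96.0 at Scai, a suppressor of MRTF. Of the 12 MEF2 regulators, 11 did, with the highest at Hdac4 (99.5), a class IIa histone deacetylase. The related Hdac9 had a promoter peak in only 1 library, a Nedd4L-cKO, at a percentile of 2.48.

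Among 13 targets of SRF, 12 had a promoter peak in all 7 libraries. The highest was Egr1 (99.9), an immediate early gene, and the lowest of those in all 7 was Actc1 (37.9), which encodes cardiac actin, while Cnn1, smooth muscle calponin, was called in 3 libraries. Among 11 targets of MEF2, 6 had a peak in all 7 libraries, where 63.4% of all genes did, with the highest at Jun (99.8). With so few genes, the list cannot be placed above or below that share. Hrc was called in 6, Ckm in 5, and Hspb7 and Smyd1 in 3 libraries each, with the lowest percentile at Smyd1 (9.21), a muscle methyltransferase. Xirp1, which encodes a protein of the myofibre, had no promoter peak in any library. The median pileup percentile of promoters open in all 7 libraries was 90.8 for the cofactors, 95.8 for the MEF2 regulators, 95.2 for the SRF targets and 92.5 for the MEF2 targets, beside 86.6 for all genes.

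None of the 36 promoter regions of these genes called in all 7 libraries passed the limma test, and none had an unadjusted p under 0.05. The region of Hrc is among them, since it was called in all 7 libraries although a peak lay within 1 kb of the start in only 6. The lowest adjusted p in each of the 4 lists was 1. The normal score was higher in Nedd4L-cKO at 23 and lower at 13 of them, with a median difference of 0.05, beside 52.7% of all regions higher. The lowest unadjusted limma p was 0.123, at Myog.

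**Figure D5:**
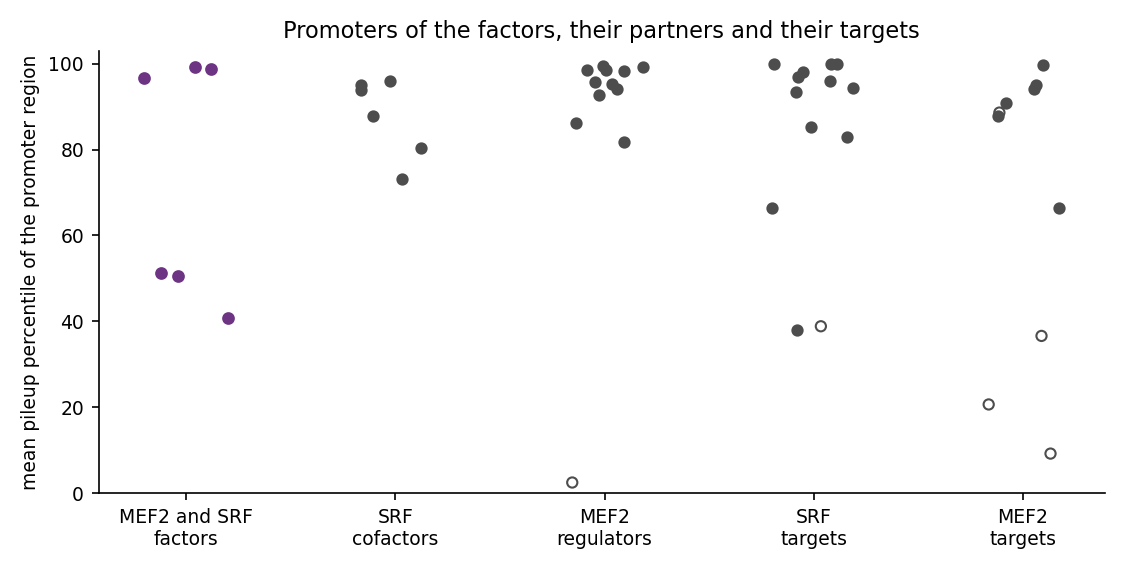
Mean percentile of pileup of the promoter region over the libraries that had a peak, for the 6 factors and for their partners and targets, 1 point per gene. Filled points are genes with a promoter peak in all 7 libraries and open points those with a peak in fewer; Xirp1, with none, is not drawn.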

How the data were processed

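Each ATAC-seq library was made by the authors from 5000 sorted MuSCs. Per the labels and the study's methods, reads were trimmed with Trimmomatic 0.39, aligned to mm10 with BWA-MEM 0.7.17, filtered on mapping quality with SAMtools and cleared of duplicates with Picard 2.26.3. Per the file headers, peaks were called on each library alone, without a control, with MACS2 2.2.7.1 in broad mode on single read ends of 151 bp, shifted by -100 bp and extended to 200 bp, at a q-value of 0.1 for broad and 0.05 for narrow peaks. Because the background is taken from the library itself, over 10000 bp or genome-wide, broad open stretches raise it and lower the fold. As deposited by the authors, pileup is a coverage signal in tags and moves with depth. Fold enrichment as deposited is the ratio of pileup to that background, each raised by 1. Significance was deposited as the -log10 of a p-value and of a q-value.

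The members and lists were chosen with earlier results of these data known. Gene spans and starts came from RefSeq tables on GRCm38.p6 (the mm10 build), and strands from a GENCODE annotation of another build. A start was known for 21440 of 21887 protein-coding genes. An overlap of 1 bp counted. Peaks of the 7 libraries were merged into regions, and where a library had several peaks in a region the highest value was used. Percentiles are over all peaks of a library. Named were, in each window, the promoter, the shared region of highest median pileup percentile away from protein-coding starts and that of lowest limma p; of each list, the genes without a peak in all libraries and the extremes of pileup. Extra peaks and neighbouring regions described beside these were chosen after their values were seen. Normal scores of fold ranks were compared with limma 3.58.1 in R 4.3.3, and totals by exact permutation in Python 3.11.15 with scipy 1.17.1. The comparison was first run on simulated normal values, without the ranking step, with planted shifts larger than any member difference given above. Alternatives changed the peak set, window, start, ranking, covariate and libraries.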

Additional observations from a re-analysis of the deposited data

Results flagged for a closer look

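Among the 4 Nedd4L-cKO libraries, 42 measures of the 6 genes were examined for a library far from the others, and 5 had such a library. For continuous values chance alone gives about 1 in 20, a rate that does not apply to the 3 peak counts among the 5, where the other libraries were tied. Nedd4L-cKO replicate 1 had 5 peaks in the Mef2b window where the others had 6. Nedd4L-cKO replicate 4, the library with the most tags, had 4 peaks in the Mef2c window where the others had 3, and 4 in the Myocd window where the others had 2. The Mef2d promoter had a pileup percentile of 99.7 in Nedd4L-cKO replicate 4, where the next was 99.3. The region of the Arhgap44 promoter in the Myocd window had a fold percentile of 71.4 in Nedd4L-cKO replicate 1, where the others had 88.5 to 89.7. The part of depth in these values was not tested.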

How the results depend on the processing

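The 6 genes all kept a promoter peak in all 7 libraries with starts widened to 2.5 kb or narrowed to 500 bp, with equal numbers of peaks, with peaks that hold a narrow peak, and without any single library (6 to 6). With the outermost start alone the count was 3, and with a -log10 q of at least 5 it was 4. For the partner and target genes, where these alternatives were added after seeing the data, 30 to 36 of 42 had a promoter peak in all libraries. No region of the windows passed limma under any of the 16 alternatives, and without single libraries the count of passing regions, and of passing named regions, was 0 to 0. The total of peaks fell to a difference of -1 (Nedd4L-cKO minus WT) with a -log10 q of at least 5 and to -0.417 with peaks that hold a narrow peak, and it was 1.33 to 2.33 without single libraries. The share of peaks that hold a narrow peak was 84.7% to 87.3% in Nedd4L-cKO and 86.04% to 92.8% in WT libraries. The difference in covered length was -0.881 kb and -0.417 kb in the same peak sets and -0.745 to 1.19 kb without single libraries: -0.745 without Nedd4L-cKO replicate 4 and -0.116 without WT replicate 3, the lane 2 library. With the replicate block, over the 3 shared numbers, it was -0.745 kb and the total of peaks was 1.33. The cause was not tested. No pairing by number was seen: deviations of same-numbered libraries correlated at -0.12, 0.03 and -0.12, and not every library correlated best with its own number. The deviations were taken from the mean of each genotype, so these values depend on one another and cannot exclude a pairing. The count of regions that separate the genotypes was 0 to 1 without single libraries: 1 without Nedd4L-cKO replicate 1 (the extra Mef2b peak) and 1 without WT replicate 2 (the extra Mef2d peak). The share of all regions that separate the genotypes under the same omissions is not given here. With fewer libraries a separation is easier to reach, so these counts cannot be read as a result about the members. Of 14 named regions, 11 kept their direction, judged by sign alone, in every alternative in which they could be tested. Some of these came close to no difference: the Mef2a region at chr7:67384793-67385939 fell to -0.0004 without WT replicate 2. The Mef2c promoter fell to 0.017 without Nedd4L-cKO replicate 4. The internal Mef2b region turned to 0.13 without Nedd4L-cKO replicate 1 and to 0.02 without WT replicate 1, the Myocd promoter to 0.11 without Nedd4L-cKO replicate 1, and the internal Srf region to -0.043 when ranked by pileup. Without single libraries the internal Mef2b region ran from -0.378 to 0.128 and the Myocd promoter from -0.609 to 0.106. The lowest adjusted limma p over these alternatives was 0.854. The promoter peaks lost at the stricter q were those of Myocd and Mef2c, whose lowest -log10 q was 2.56 and 3.62.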
